A study of Homo sapiens with 60 samples.

Results

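The cytosolic ribosomal protein genes were taken as all rows of the gene table typed as protein-coding whose symbol is RPL or RPS followed by a digit, or RPLP0, RPLP1, RPLP2 or RPSA, without the RPS6K kinases and the RPS4Y genes. This gave 89 of 62703 genes. By name, 77 of them are the standard proteins of the human ribosome, 46 of the large (60S) and 31 of the small (40S) subunit, and 8 are paralogs of these. Of the remaining 4, 3 are readthrough genes that join a ribosomal protein gene to its neighbor, and 1 is RPS19BP1, which is no ribosomal protein but encodes a protein that binds RPS19. A filter on low counts left 84 of the 89 for testing. RPL39L and RPL3L, with 6 and 1 reads in all 60 libraries, and the 3 readthrough genes, with 0 reads, were not tested. No level, fold change or test chose the members.

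Each ribosome holds about one copy of each of these proteins, and proliferating cells spend a large part of their mRNA on them. Most of their mRNAs begin with a cytosine followed by a run of pyrimidines, the 5′ terminal oligopyrimidine (TOP) motif. Through this motif, LARP1 and the kinase complex mTORC1 control how strongly the mRNAs are translated, usually with little change in mRNA level. A few members have a paralog with its own regulation, and RPS27L, a paralog of RPS27, is known as a target of the DNA damage factor p53.

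All libraries came from 1321N1, a human astrocyte-derived tumor line, and were made by 3′ mRNA sequencing. Cells received sodium metaarsenite at 2.55 µM, cadmium chloride at 2.3 µM, mercury chloride at 20 µM, or no metal, and were lysed after 1.5, 3, 6, 12 or 24 h. Each of the 20 combinations had 3 libraries, which the labels call technical triplicates, so the p-values below may cover only the spread between handlings of one culture. Libraries held 2215276 to 4404609 counted reads. The astrocyte markers VIM, CD44, SOX9 and GJA1 were expressed in every library, at medians of 4488, 394, 78.2 and 20.4 counts per 1000000 (CPM), while AQP4 and ALDH1L1 had 0 reads and GFAP, S100B, SLC1A2 and SLC1A3 reached at most 13 reads in a library. Of 10 markers of neurons, oligodendrocytes and microglia, only SYT1 had more than 7 reads in any library, at 5.85 to 21.8 CPM. The 92 synthetic spike-in rows held 0 reads, so all levels are relative to the other RNA of the same library. In such bulk samples, fewer cells and less RNA per cell cannot be told apart.

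The first bases of the genes are shown because the TOP motif is the feature most members share and the paralogs mostly lack. RefSeq promoter windows (GRCh38.p14) were matched by symbol for 70 of the 89 genes, using the first start listed for a gene. Each line runs from 10 bases before the annotated start to 20 bases from it, and capitals mark a pyrimidine run of at least 5 bases that begins with C within 10 bases of the start.
RPS26: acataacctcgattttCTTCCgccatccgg
RPS27: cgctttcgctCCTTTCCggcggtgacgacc
RPS27L: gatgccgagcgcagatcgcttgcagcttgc
RPL26: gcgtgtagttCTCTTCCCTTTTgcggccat
RPL26L1: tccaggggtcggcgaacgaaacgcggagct
RPL22: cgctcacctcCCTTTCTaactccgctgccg
RPL22L1: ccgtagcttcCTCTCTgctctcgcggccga
RPL7A: attccctttcCTTTCTCTCTCCTCCCgccg
RPL18: agcccgttctCTCTTTCCggacctggccga
These stretches lie at chr12:56041908-56041937 on the plus strand for RPS26, chr1:153990752-153990781 plus for RPS27, and chr15:63157458-63157487 minus for RPS27L. RPL26 is at chr17:8383174-8383203 minus and RPL26L1 at chr5:172958719-172958748 plus. RPL22 is at chr1:6199576-6199605 minus, RPL22L1 at chr3:170870176-170870205 minus, RPL7A at chr9:133348208-133348237 plus and RPL18 at chr19:48619159-48619188 minus.

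A run starting exactly at the annotated start, C followed by at least 4 letters C or T, was found in 42 of 62 standard members with a window (67.7%) and in 1 of 6 paralogs, RPL22L1, against 4.04% of all 27305 promoters. With the start of the run allowed up to 10 bases away, these shares were 55 of 62 (88.7%), 2 of 6 and 33.3%. The second paralog was RPL36AL. The TATA letters TATAAA or TATATA in the 60 bases before the start occurred in 9 of 70 members (12.9%) and 4.14% of all promoters. Among standard members it was 6 of 62 (9.68%) and among paralogs 2 of 6. RPL17 and RPL36A each share a window with their readthrough gene, and both copies are counted among the 70. In the whole window and on both strands, CCGGAAGT, the core bound by ETS factors, was present in 15.7% of members and 4.44% of all, and AAGATGGCG, the YY1 motif, in 8.57% and 1.85%. The E-box CACGTG was present in 5.71% and 7.43%, and the SP1 box GGGCGG in 54.3% and 44.6%. The TATA letters were searched on the gene's own strand. No other motif contains another one, and a match describes the sequence only.

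The members took 10.6 to 13.7% of the counted reads of a library. Because 3′ sequencing gives about 1 read position per transcript, counts do not scale with transcript length and the levels below are compared as CPM. RPS27A, which encodes a fusion of ubiquitin and a 40S protein, was the highest on average at 6857 CPM (5760 to 8680 over the 60 libraries), followed by RPL37A at 5444 and RPL11 at 3722 CPM. Among the lowest tested members were RPL17 at 1.64 and RPS10 at 5.90 CPM. These genes share 78.5% and 76.5% of their last 400 exonic bases with another annotated gene on the same strand, and reads that overlap more than 1 gene were not counted. RPL36A, at 12.0 CPM, held few reads beside its processed pseudogenes, which took 97.4% of the counts of gene and pseudogenes together. For RPL3, RPL15, RPL6, RPS15, RPL7 and RPS15A, the pseudogene share was 22.8 to 31.8%, so their levels are uncertain.

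In cells without metal, the share of reads in the members moved with time in culture. At 1.5 h, the 3 libraries had 10.8, 10.9 and 11.2% of reads in these genes. At 12 h they had 12.7, 13.4 and 13.7%, above every non-treated library of the other times. At 24 h the values were 11.7, 12.5 and 12.6%. The 12 h control was thus the highest of all 20 groups by its mean of 13.3% ± 0.49 (SD, n = 3), while the lowest was non-treated 1.5 h at 10.9% ± 0.19 (SD, n = 3). Leaving mitochondrial transcripts out of the denominator raised the median over all libraries from 11.7 to 12.5%, and adding pseudogene reads to the numerator gave 12.5%.

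**Figure D1:**
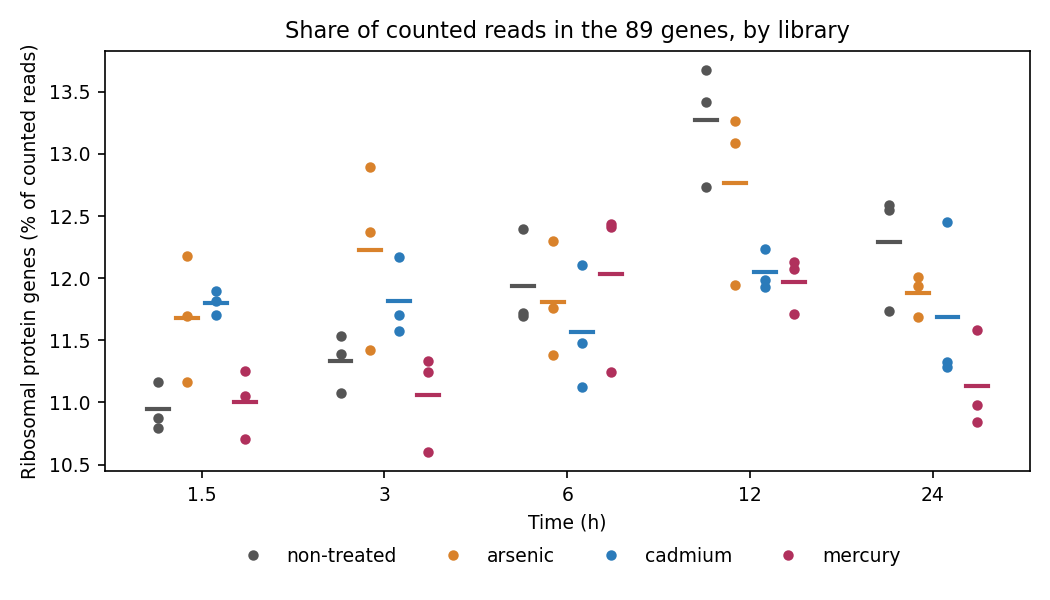
Share of counted reads (%) in the 89 ribosomal protein genes against time (h). Each point is 1 library, colors are the treatments, and bars are the means of 3 libraries; non-treated libraries reach 12.7 to 13.7% at 12 h, and mercury libraries sit at 10.8 to 11.6% at 24 h.

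Compared gene by gene, 48 of the 84 tested members were higher in non-treated cells at 12 h than at 1.5 h and 0 were lower (edgeR quasi-likelihood test, Benjamini-Hochberg adjusted p under 0.05, over 12341 genes). Of all tested genes, 2.34% rose and 1.75% fell. The median log2 fold change (LFC) of the members was 0.30, with 78 of 84 above 0, against 0.00 over all genes. Small-subunit genes had 23 of 31 called and a median LFC of 0.39, large-subunit genes 25 of 46 and 0.28, and the paralogs 0 of 6 and 0.07. The difference between these groups was not tested. At 3 h without metal 0 members were called by edgeR and 0 by DESeq2 (2 at an unadjusted p under 0.05). At 6 h edgeR called 0 and DESeq2 1 (22 at an unadjusted p under 0.05), where edgeR called 0.486% of all genes, against 0.122% at 3 h. At 24 h 10 rose and 1 fell, against 1.84 and 1.45% of all genes. Without the second 24 h library 0 were called at that time, and 19 without the third.

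RPS26, which lines the channel where mRNA leaves the 40S subunit, changed most. Its levels were 256, 270.2 and 334 CPM at 1.5 h and 473, 546 and 559 CPM at 12 h in non-treated cells. The groups did not overlap, and the LFC was 0.88 ± 0.12 (SE; adjusted p = 1.09e-06). RPS27, a zinc-binding 40S protein, went from 652, 667 and 674 to 890.0, 1083 and 1262 CPM, again without overlap (LFC 0.70 ± 0.13, adjusted p = 0.000371). RPSA, which sits near RPS26 on the back of the 40S subunit, was at 509, 542 and 550.3 CPM and then at 714, 750.4 and 906 CPM (LFC 0.57 ± 0.11, adjusted p = 0.000762). RPS28, RPS2, RPS21 and RPS18 rose as well, with LFCs of 0.61, 0.60, 0.59 and 0.57, between those of RPS27 and RPSA. At 24 h RPS26 was still higher than at 1.5 h (LFC 0.58 ± 0.12, adjusted p = 0.00145), with 348, 432 and 503 CPM.

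Other members moved little over the same interval. RPLP0, the base of the stalk that recruits elongation factors, had 1528, 1549 and 1560.4 CPM at 1.5 h and 1575, 1652 and 1655 CPM at 12 h (LFC 0.07 ± 0.06, 95% confidence interval -0.04 to 0.19). RPL22, RPS6, RPS3 and RPL5 had LFCs of 0.03, 0.16, 0.19 and 0.15, none past the threshold. RPL7L1 and RPS27L had the values -0.23 and -0.12, neither called. Of the 57 tested members with a pyrimidine run within 10 bases of the start, 35 rose and the median LFC was 0.32. Of the 11 without one, 4 rose and the median was 0.06. These 11 include the paralogs RPL10L, RPL26L1, RPL7L1 and RPS27L, and RPL17 with 5.35 reads per library on average. The run, paralog status and low counts were not tested apart. With the run required at the start itself, the medians were 0.32 (43 members) and 0.29 (25 members), so the gap depended on how the motif was read.

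The members also varied together among the 3 libraries of the same group. On log2(CPM + 1), the SD within groups ran from 0.04 for RPLP0 to 0.29 for RPL10L, with a median of 0.11. A single component held 52.3% of this within-group variance over the 80 members with at least 50 reads per library on average, and 69 of the 80 had weights of the same sign. RPL41, the smallest ribosomal protein, weighed most, followed by RPS28. In arsenic-treated cells at 1.5 h, RPL41 was at 971, 1684 and 1687 CPM, and in mercury-treated cells at 6 h at 762, 1370.0 and 1514 CPM, with 1 library of each group far below the other two. RPL26, RPL23A, RPL7L1 and RPS24 had weights of the opposite sign.

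Across the 80 members, the weight in this component and the rise of non-treated cells at 12 h had a Spearman correlation of 0.74. Both come from the same libraries, genes are not independent replicates, and the part of this shared spread in the 12 h rise was not tested. The correlation of the weight with the GC content of the last 400 transcript bases was 0.49, and with mean CPM 0.03. Against the mean of the other 4 non-treated times, the 12 h libraries still had 45 members called higher and 0 lower (2.34 and 1.61% of all genes, median LFC 0.24), a comparison added after seeing the data. Without the first 12 h library the count for 12 h against 1.5 h was 24, and without the first or second 1.5 h library it was 31 or 32.

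**Figure D2:**
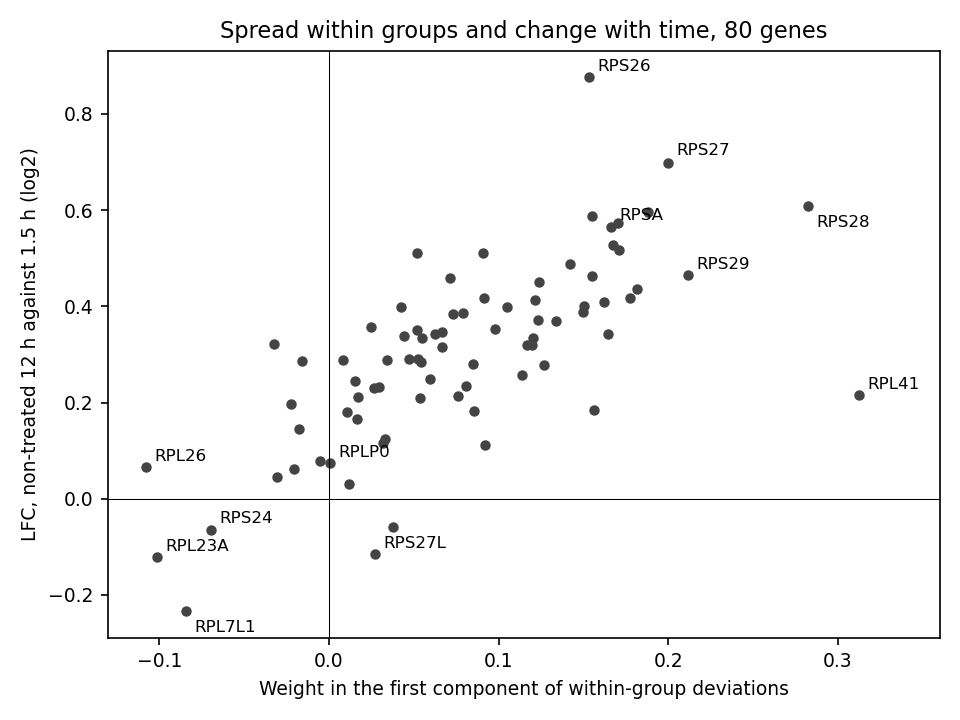
Weight of each of 80 members in the first component of the deviations of single libraries from their group mean (no unit) against the LFC of non-treated cells at 12 h over 1.5 h. Each point is 1 gene, and labeled genes are named in the text. RPS28 and RPS27 lie high, and RPL26, RPL23A and RPL7L1 lie low on both axes. RPL41, with the largest weight (0.31), has an LFC of only 0.215.

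Ribosomal protein mRNAs were then compared between metal-treated and non-treated cells. In the 15 comparisons with non-treated cells of the same time, 29 of 84 members were called at least once, against 39.8% of all genes. No called member had an LFC beyond 1 in either direction, which 11.6% of all genes had in at least 1 comparison. At 1.5 h edgeR called 0 members for any metal, where 0.0729, 0 and 0.567% of all genes were called for arsenic, cadmium and mercury. At 3 h it called 0 as well (0.138, 0.203 and 1.55% of all genes), and at 6 h 0 for arsenic (0.916%) and cadmium (2.05%). At these early times more members had a positive than a negative LFC with arsenic (69 of 84 at 1.5 h, 72 at 3 h) and cadmium (75 and 63), or 75 to 89.3% of the members against 49.9 to 52.2% of all genes, with medians of 0.10 to 0.13. At an unadjusted p under 0.05, 24 to 29 members were higher, where 751 and 526 of all 12341 genes were higher with arsenic and 527 and 616 with cadmium at 1.5 and 3 h. For mercury at 1.5 and 3 h, and for arsenic and cadmium at 6 h, at most 1 member was higher and 3 lower at that p. Without the third arsenic library of 1.5 h, in which RPL41 was lowest, 21 members were called, 19 higher and 2 lower. Without the third cadmium library of 3 h there were 9. One arsenic library of 3 h and one cadmium library of 6 h held 1.91 and 1.35% mitochondrial reads, against 3.83 to 7.94% in the other 58, and the part of this in the results was not tested. DESeq2 called 2 members higher for arsenic at 1.5 h and 0 in the other comparisons with 0 calls named here.

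**Figure D3:**
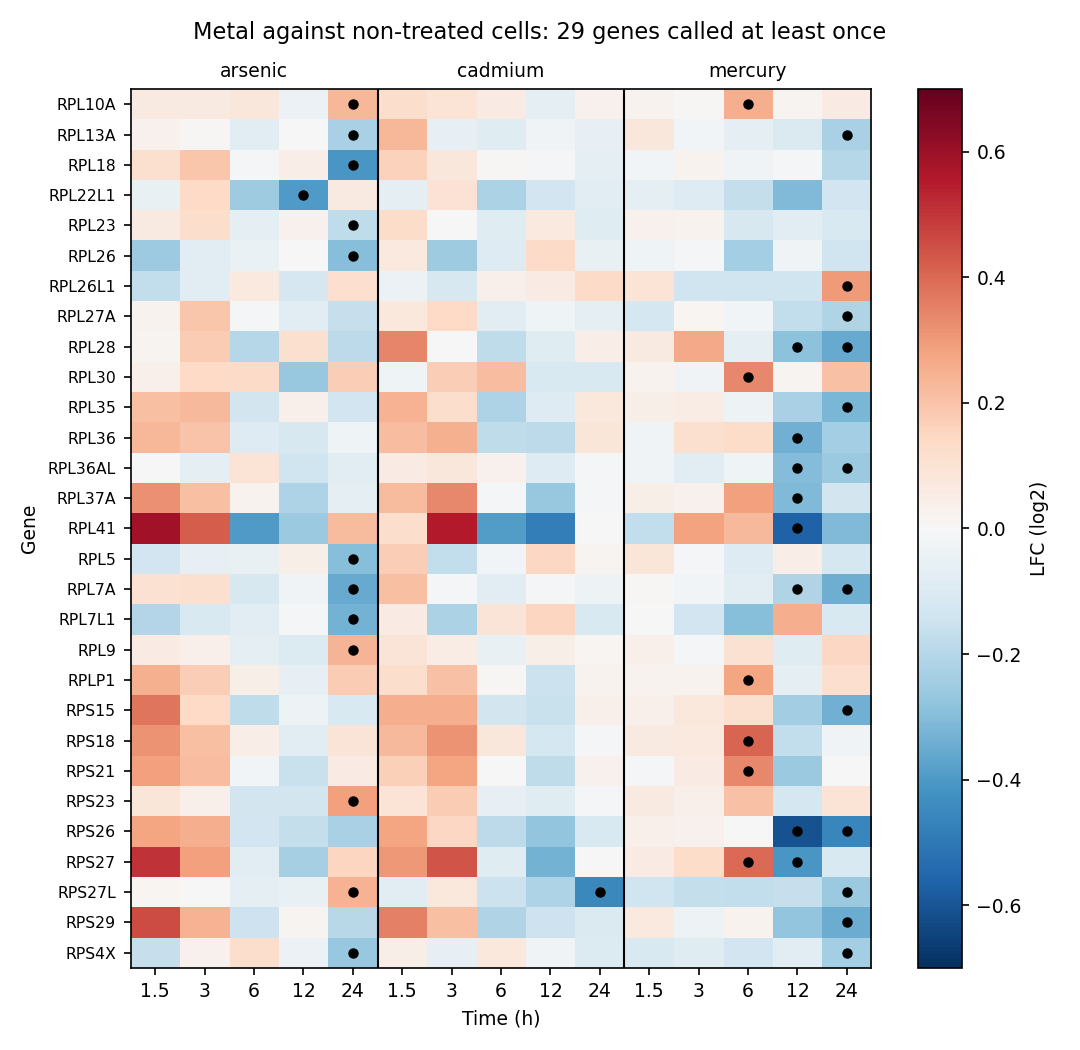
LFC against non-treated cells of the same time (color scale, log2) for the 29 members called in at least 1 of 15 comparisons, by metal and time (h). Dots mark adjusted p under 0.05; most dots lie in the 24 h columns of arsenic and mercury, and RPS27L is red with arsenic and blue with cadmium and mercury at 24 h.

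Mercury at 6 h raised 6 members, 7.14% of the 84 against 4.49% of all genes, and lowered 0 (2.99% of all genes). These were RPS18, RPS27, RPL30, RPS21, RPLP1 and RPL10A, with LFCs of 0.26 to 0.41. RPL30 had 1701, 1853 and 1893 CPM in non-treated and 2155, 2219.6 and 2516 CPM in mercury-treated cells, without overlap (LFC 0.34 ± 0.09, adjusted p = 0.00697). RPS27 overlapped, with 716, 727 and 830.5 CPM against 712, 1126 and 1152 CPM (LFC 0.39 ± 0.13, adjusted p = 0.0444). The count depended on single libraries. It was 0 without the first mercury library, 1 without the second and 22 without the third, and it was 1 without the second control library and 2 without the third. It was 14 with DESeq2.

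At 12 h mercury lowered 8 members, 9.52% against 7.16% of all genes, and raised 0 (8.89% of all genes). The median LFC was -0.11, with 71 of 84 below 0. RPS26 was lower than in the non-treated cells of 12 h, at 306, 353 and 374 against 473, 546 and 559 CPM, without overlap (LFC -0.61 ± 0.12, adjusted p = 6.87e-05). RPS27 fell by 0.41 ± 0.13 on the log2 scale (adjusted p = 0.0191), from 890.0, 1083 and 1262 to 773, 780.3 and 882 CPM. RPL41 fell as well (LFC -0.57 ± 0.19, adjusted p = 0.0265), but its values of 767, 1147 and 1441 and of 706, 744 and 816 CPM overlapped. RPL36, RPL37A, RPL36AL, RPL28 and RPL7A were the other 5, with LFCs of -0.34 to -0.21. Without the first 12 h control library 2 members were called, without any 1 mercury library 3 to 5.

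The sign of the median LFC at 12 h, and most calls, depended on the control. When the mercury libraries of 12 h were set against the mean of non-treated cells of 6 and 24 h, a comparison added after the 12 h controls were seen to stand apart, 12 members were higher and 4 lower (12.6 and 11.8% of all genes) and the median LFC was 0.06. Of the 8 members called lower against the 12 h controls, 7 were not called against these, but all except RPS27 kept a negative LFC. Such a comparison sets 12 h against other times, so metal and time in culture cannot be told apart in it. For RPS26 the LFC was -0.21 (adjusted p = 0.145) in place of -0.61, and for RPS27 it was 0.056 (adjusted p = 0.763). RPL28 was still lower (LFC -0.27, adjusted p = 0.0146). Arsenic and cadmium at 12 h had 0 members higher and 1 or 0 lower against their own control (2.37% of all genes higher and 1.74% lower with arsenic, 8.18% called with cadmium). For cadmium DESeq2 also called 0, and 1 member was higher and 9 lower at an unadjusted p under 0.05. Against the controls of 6 and 24 h, 14 were higher and 0 lower with arsenic (4.31% of all genes in each direction) and 15 higher and 1 lower with cadmium (9.2 and 7.47%). Each metal's 12 h libraries were also compared with the same metal at 1.5 h: 16 members rose and 1 fell with arsenic (3.77 and 4.5% of all genes), 3 rose and 1 fell with cadmium (5.49 and 4.63%), and 19 rose and 0 fell with mercury (6.39 and 4.73%). These comparisons were also added after seeing the data. The effect of a metal itself was lower at 12 h than at 1.5 h in 3 members with arsenic (1.49% of all genes), 4 with cadmium (1.66%) and 1 with mercury (1.42%), and higher in 0 (1.13, 3.1 and 2.61%). Between 12 and 24 h it rose in 2 members with arsenic and fell in 0 (0.673 and 0.899% of all genes), while 0 were called with cadmium (0.381%) and mercury (0.624%) by edgeR and by DESeq2.

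At 24 h mercury lowered 11 members and raised 1, or 13.1% and 1.19% of the 84, against 13.9% of all genes in each direction. Among called members RPS26 again had the lowest LFC, at 282, 301 and 351 CPM against 348, 432 and 503 CPM in non-treated cells (LFC -0.46 ± 0.12, adjusted p = 0.00198). The groups overlapped slightly. RPL7A, a large-subunit protein on the solvent side, had 1389, 1448 and 1531 CPM against 1657, 1926 and 1962 CPM (LFC -0.34 ± 0.07, adjusted p = 0.000203), without overlap. RPL28, also of the large subunit, had 569, 615 and 627 CPM against 699, 765 and 843 CPM (LFC -0.35 ± 0.10, adjusted p = 0.00429). The others were RPS29, RPS15, RPL35, RPL36AL, RPS27L, RPS4X, RPL13A and RPL27A, with LFCs of -0.35 to -0.21. The call of RPS15 was lost with pseudogene counts added. Those of RPS4X and RPL27A were each lost under 4 of 9 alternatives, fits without 1 library aside. RPS29, RPL36AL, RPS27L and RPL13A were each lost under 1 and RPL35 under 0. The call of RPL7A held when any 1 of the 6 libraries was left out, whereas 2 members in all were called without the second control library.

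RPL26L1, a paralog of the tunnel-exit protein RPL26, was the member that rose with mercury at 24 h. It had 78.6, 81.8 and 99.0 CPM in non-treated and 102, 104 and 112 CPM in mercury-treated cells (LFC 0.30 ± 0.11, adjusted p = 0.0266). In non-treated cells it had fallen from 102, 115 and 115 CPM at 1.5 h (LFC -0.36 ± 0.11, adjusted p = 0.0464). The mercury libraries of 24 h thus lay near the level of non-treated cells at 1.5 h. The call with mercury was lost without a filter on low counts and with only the 6 libraries compared. It was also lost in 3 of 6 fits without 1 library. For the fall in non-treated cells, the same 2 alternatives and 4 of 6 such fits lost the call. RPL26 itself was not called with mercury at 24 h (LFC -0.14).

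Arsenic at 24 h moved members in both directions, 4 up and 8 down, or 4.76 and 9.52% against 6.54 and 7.75% of all genes. RPL7A fell to 1354, 1389 and 1600.4 CPM, below all 3 controls (LFC -0.35 ± 0.07, adjusted p = 0.00033). RPL18, another large-subunit protein, had 1092, 1178 and 1251 CPM against 1328, 1661 and 1682 CPM (LFC -0.41 ± 0.10, adjusted p = 0.00182). Both calls held without any 1 of the 6 libraries. The RPL7A calls with arsenic and mercury share the same control libraries. In non-treated cells RPL7A had risen from a mean of 1485 CPM at 1.5 h to 1848 CPM at 24 h (LFC 0.32, adjusted p = 0.00677). Its means with arsenic and mercury at 24 h, 1448 and 1456 CPM, were near the 1.5 h control level. RPL18 averaged 1249 CPM at 1.5 h and 1557 CPM at 24 h in non-treated cells. RPL5, which with RPL11 and 5S rRNA forms the particle that can bind the p53 regulator MDM2, had 1597, 1666 and 1990.3 CPM against 2103, 2149 and 2202 CPM (LFC -0.30 ± 0.08, adjusted p = 0.00425), a call that was lost without the first arsenic library. Its partner RPL11 had an LFC of -0.09 and was not called.

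The further 5 members lower with arsenic at 24 h were RPL7L1, a relative of RPL7 known from assembling ribosomes, RPL26, RPS4X, RPL13A and RPL23, with LFCs of -0.33 to -0.18. RPL26 had 1473, 1485 and 1498 CPM in controls and 1058, 1154 and 1412 CPM with arsenic (LFC -0.30, adjusted p = 0.0432). This call was lost with a stricter filter, with pseudogene counts added and in 5 of 6 fits without 1 library. RPL26 also shares 55.8% of its last 400 exonic bases with another annotated gene on the same strand. The 4 members that rose were RPS23, a protein of the decoding center, RPS27L, RPL9 and RPL10A. RPS23 had 733, 779 and 856 CPM in controls and 884, 972 and 1034 CPM with arsenic (LFC 0.29 ± 0.09, adjusted p = 0.0297), and RPL9 had 414, 439.7 and 454 against 498, 513 and 533 CPM (LFC 0.24 ± 0.07, adjusted p = 0.0136). RPL10A, which forms the L1 stalk where empty tRNA leaves, had 1351, 1357 and 1390.3 against 1557, 1604 and 1646 CPM. Its LFC was 0.23 ± 0.07 (adjusted p = 0.0168). In place of 12 members, 3 were called without the first arsenic library, 4 without the second control library, 5 without the second arsenic library and 6 without the first control library.

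Cadmium changed 1 member at 24 h, RPS27L (0.632% of all genes were lower and 1.56% higher). Among called members, RPS27L also had the largest difference between 2 metals at 24 h. It had 433, 458 and 516 CPM in non-treated cells, 529.9, 549.6 and 584 CPM with arsenic, 333, 338 and 359 CPM with cadmium, and 351, 396 and 429 CPM with mercury. The arsenic libraries lay above, and the cadmium and mercury libraries below, all 3 controls. Arsenic raised it by an LFC of 0.24 ± 0.08 (adjusted p = 0.0346). Its LFC under cadmium was -0.45 ± 0.08 (adjusted p = 0.000162), and under mercury it was -0.26 ± 0.08 (adjusted p = 0.0129). Set directly against each other, arsenic exceeded cadmium by an LFC of 0.69 ± 0.08 (adjusted p = 1.35e-09) and mercury by 0.50 ± 0.08 (adjusted p = 5.7e-06).

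For the call with cadmium, leaving out any 1 library changed nothing, but with only the 6 libraries in the fit the adjusted p was 0.0758. The calls with arsenic and mercury were lost in 4 and 2 of 6 such fits. Its partner RPS27 was not called at 24 h with any metal. Over the 15 metal comparisons, the members whose LFCs were most like those of RPS27L included RPL34 (Pearson r = 0.57) and RPS12 (0.50), given as a description because comparisons of 1 time share controls.

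**Figure D4:**
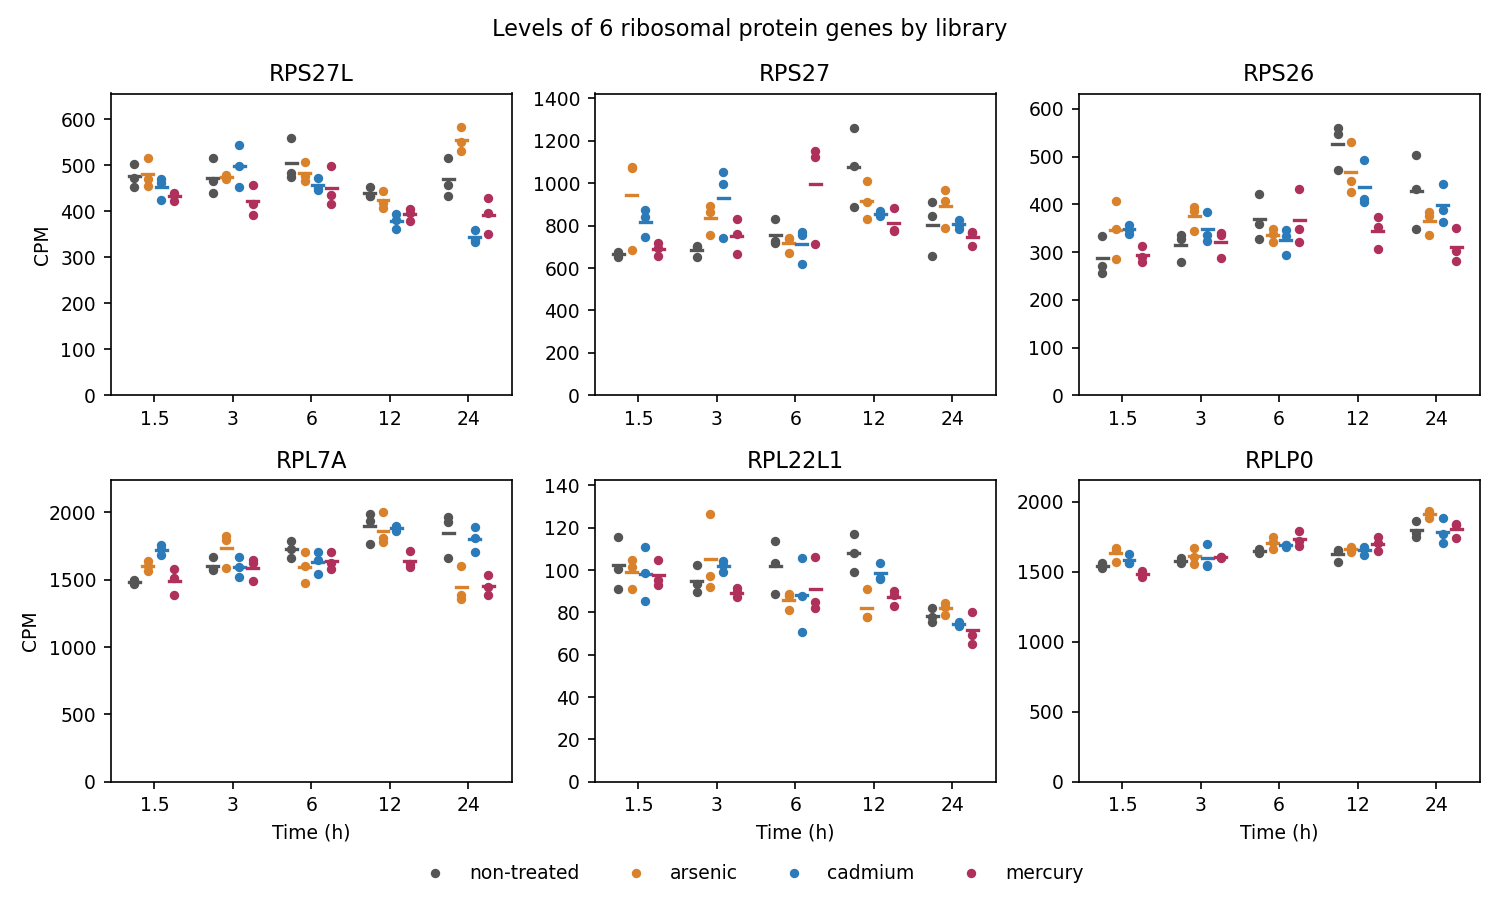
CPM of 6 members in each of the 60 libraries against time (h), with colors for the treatments and bars for the means of 3 libraries. At 24 h RPS27L lies above the controls with arsenic and below them with cadmium and mercury, and these 2 metals overlap each other. RPS26 and RPS27 peak in non-treated cells at 12 h. RPL7A is low with arsenic and mercury at 24 h, and RPLP0 has the narrowest spread.

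RPL22L1, a paralog of RPL22 that keeps a pyrimidine run at its start, was the 1 member lower with arsenic at 12 h. It had 99.3, 108 and 117 CPM in controls and 77.6, 77.9 and 91.2 CPM with arsenic (LFC -0.39 ± 0.12, adjusted p = 0.0341), while RPL22 had 96.9, 106 and 109 against 92.9, 116 and 118 CPM. Of all members, 7 were lower and 0 higher in controls at 24 h than at 12 h (0.648 and 0.883% of all genes), a comparison added after seeing the data, and RPL22L1 was one of them. By 24 h the controls were at 75.3, 77.8 and 81.9 CPM, lower than at 12 h (LFC -0.46 ± 0.12, adjusted p = 0.023). Against the controls of 6 and 24 h the arsenic libraries were not called. Its LFCs over the 15 comparisons were like those of RPL41 (r = 0.75) and RPL3 (0.70). RPL36AL, the paralog that carries most of the counted reads of its pair, was lower with mercury at 12 and 24 h (LFC -0.30 and -0.26), and RPL36A was not called. Over all libraries RPL36A held 2388 reads, its pseudogenes 90673 and RPL36AL 70574. The balance within the pair is therefore uncertain, and few reads were left to test RPL36A. RPL10L, known from testis, averaged 16.7 CPM and was never called.

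Metals were also compared directly at each time. Arsenic and cadmium differed in 10 members at 24 h, 5 higher and 5 lower with arsenic, where 4.2 and 5.96% of all genes were called. At 1.5, 3, 6 and 12 h edgeR and DESeq2 each called 0 members between these metals, where edgeR called 0, 0.138, 1.18 and 5.77% of all genes. Besides RPS27L, the members at 24 h were RPS25, RPS23, RPL30 and RPL9 (higher with arsenic) and RPS19BP1, RPL18, RPL5, RPL7A and RPL32 (lower). Cadmium exceeded mercury at 24 h in 9 members and was lower in RPL30, against 9.7 and 10.3% of all genes. RPL28 had 744, 745 and 896 CPM with cadmium, all above the 3 mercury libraries (LFC 0.40 ± 0.10, adjusted p = 0.00177). Arsenic exceeded mercury at 24 h in RPS27L and RPL12, and 0 members were lower (4.59 and 6.78% of all genes). Leaving out the second arsenic library took the count for arsenic against cadmium to 3, and leaving out the third cadmium library took that for cadmium against mercury to 3.

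At 6 h mercury exceeded arsenic in 10 members and was lower in 0 (3.07 and 1.41% of all genes), and exceeded cadmium in 5 (2.14%), with RPS27, RPL41, RPLP2 and RPS21 in both sets. Cadmium exceeded mercury at 6 h in RPL7L1 (1.64%). At 1.5 h arsenic exceeded mercury in RPL41 and RPS9 and was lower in 0 members (0.818 and 0.737%). At 12 h arsenic exceeded mercury in RPS26 and RPL28 (2.42%) and was lower in RPL30 (4.42%). The comparisons with mercury that called 0 members were those of arsenic at 3 h (1.89% of all genes) and of cadmium at 1.5, 3 and 12 h (0.656, 1.78 and 3.29%), and among these DESeq2 called 2 for cadmium at 3 h and 0 in the others. The count of 10 for arsenic at 6 h ran from 0 to 27 when 1 library was left out, and the highest value was reached without the third mercury library.

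Grouped by place on the ribosome, the time course without metal showed 6 of 6 genes of the mRNA exit side and platform higher at 12 h, 6 of 8 of the mRNA entry and decoding side, 3 of 4 of the P stalk and its base, 1 of 2 of the 5S particle and 2 of 9 of the peptide exit tunnel and its rim, beside 57.1% of all 84 members and 2.34% of all genes. These groups were chosen with earlier results of the data known, and no test compared them. In each metal comparison of 6 to 24 h a group had at most 1 member called. The 3 ribosomal proteins with other names had 1 call, FAU, a ubiquitin-like fusion of a 40S protein, lower with arsenic at 24 h (LFC -0.27 ± 0.09, adjusted p = 0.0349), and 1 of the 3 rose without metal at 12 h.

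The other genes of ribosome production and translation were grouped by function. Of 85 tested ribosome biogenesis factors, 23 were lower and 4 higher with mercury at 24 h, and 14 lower and 1 higher with arsenic, against 0 in each direction with cadmium. Of all genes, 13.9% were called in each direction with mercury at 24 h, 7.75% were lower and 6.54% higher with arsenic, and 0.632% were lower and 1.56% higher with cadmium, and the counts of the lists below stand beside these shares. BOP1, needed for maturation of the large subunit, fell (LFC -1.11 ± 0.15, adjusted p = 2.33e-08), and EFL1, which helps release eIF6 from new 60S subunits, rose (LFC 0.98 ± 0.21, adjusted p = 0.000252). Of 15 genes of RNA polymerase I, 4 were lower and 1 higher with mercury at 24 h, including POLR1A (LFC -0.80 ± 0.19) and the initiation factor RRN3 (LFC 0.89 ± 0.14). Among 11 chaperones of ribosomal proteins, HEATR3 (LFC -0.78) and GRWD1 (LFC -0.43) were lower with mercury at 24 h, and 1 rose with arsenic.

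Translation genes were called in both directions, as were 13.9% of all genes in each direction with mercury at 24 h. Of 30 initiation factors, 8 were lower and 4 higher with mercury at 24 h, with EIF5 at an LFC of 0.90 ± 0.07 (adjusted p = 1.33e-16) and EIF2B2 at -0.62 ± 0.16, and 6 were lower and 3 higher with arsenic. Of 16 elongation factors and other genes with TOP mRNAs, 5 were higher and 1 lower with mercury at 24 h, led by EIF4A2 (LFC 0.66) and EIF3E (LFC 0.52), and 0 changed with arsenic or cadmium. Of 18 regulators of TOP mRNAs and mTOR, 10 were higher and 3 lower with mercury at 24 h, 5 higher and 1 lower with arsenic, and 2 higher with cadmium. SESN2 and DDIT4, which both restrain mTORC1, rose most with mercury (LFC 2.78 ± 0.17 and 2.29 ± 0.19).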

How the data were processed

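RNA of 60 libraries was sequenced by 3′ mRNA sequencing with single-end reads of 100 bases. The authors aligned the reads with STAR 2.7.9a to GRCh38 and counted them over exons of GENCODE annotation, with strand and without reads that overlap more than one gene, and deposited whole counts per gene. How reads with several equal alignments were assigned is not given in the sources used here. Totals per library were 2215276 to 4404609 counts, and members with few reads have wide intervals.

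Counts were analyzed in R 4.3.3 with edgeR 4.0.16 (TMM factors, filterByExpr with a minimum count of 10, quasi-likelihood test), 1 mean per metal and time over all 60 libraries, and Benjamini-Hochberg adjustment over 12341 genes at 0.05. LFCs are given ± SE. CPM are counts per 1000000 with TMM-scaled totals. DESeq2 1.42.0, other size factors, other filters, pseudogene counts added to their parent genes, fits of only the 6 libraries compared, a replicate block, and leaving out each library in turn were alternatives. The test was checked on simulated counts with known changes. No 2 libraries of a group were copies of each other. Members and lists were chosen with earlier results of these data known. Named were 20 preset members (ribosomal stalk, 5S particle, paralogs and their partners), members called beyond an LFC of 1, the 3 largest rises and falls per metal at 12 and 24 h with at least 50 counts on average, the 3 highest and lowest members, and the 2 largest changes per list at 24 h. Some members these rules select are not reported here. Other named genes were chosen after their values were seen. Overlaps of the last exonic bases were read from GENCODE 44, not the release used for counting.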

Additional observations from a re-analysis of the deposited data

Results flagged for a closer look

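The effect of a metal against non-treated cells differed between time points for 7 members, by edgeR's quasi-likelihood test of the difference between 2 LFCs with Benjamini-Hochberg adjustment. Between 1.5 and 12 h the effect of arsenic moved by -0.74 for RPS27 (adjusted p = 0.0107), -0.53 for RPL37A (0.0271) and -0.54 for RPS9 (0.0341). That of cadmium moved by -0.63 for RPS27 (0.0272), -0.55 for RPS26 (0.0392), -0.49 for RPL37A (0.0337) and -0.36 for RPL37 (0.0379), and that of mercury by -0.65 for RPS26 (0.0114). All of these contain the 12 h controls, with the highest mean share of reads in members of all 20 groups (13.3%). They also contain the 1.5 h controls, with the lowest (10.9%), and the same control libraries enter the 3 metals. The arsenic count of 3 was 18 without the third arsenic library of 1.5 h.

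Between 12 and 24 h the effect of arsenic moved by 0.44 for RPL30 (adjusted p = 0.0497) and 0.58 for RPS25 (0.041). RPS25 had 638, 707 and 761 CPM with arsenic and 854, 869 and 872 CPM without at 12 h, and 723, 763 and 774 against 569, 573 and 715 CPM at 24 h. The arsenic libraries lay below the controls at 12 h and above them at 24 h.

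RPS27L moved in opposite directions with different metals at 24 h. The difference of arsenic from cadmium was 0.69 (adjusted p = 1.35e-09) and from mercury 0.50 (adjusted p = 5.7e-06), with all 3 arsenic libraries above and all 6 others below the controls.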

How the results depend on the processing

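Of 40 calls of members in the metal comparisons, 13 kept their direction and call under all alternatives that used every library, and 3 also when any 1 library was left out (RPL7A with arsenic and mercury and RPL18 with arsenic, all at 24 h), while 39 never changed sign. The exception was RPS27 with mercury at 12 h, at 0.056 against the controls of 6 and 24 h. For RPL15, whose pseudogenes share its reads, the LFC of non-treated cells at 12 h against 1.5 h was -0.0052 with pseudogene counts added. Fits without a library start from the common and trended spread estimated over all 60 libraries, the one left out included. The cause of these shifts was not tested. Under the scaling alternatives, the median LFC of all genes in the metal and non-treated comparisons lay between -0.049 and 0.020.

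Without a filter on low counts, the members called were 12, 1, 1 and 0 for arsenic and 1, 7, 1 and 4 for cadmium at the times from 1.5 to 12 h in order, and 12 for mercury at 6 h. With the 6 libraries compared alone they were 10, 1, 1, 4 and 0 for cadmium over the 5 times in order, 1, 0 and 7 for arsenic from 6 to 24 h, and 3 and 17 for mercury at 6 and 12 h. DESeq2 called 2 for arsenic at 1.5 h, 14 for mercury at 6 h and 2 for arsenic at 12 h, 6 and 16 for arsenic against mercury at 1.5 and 6 h, and 2 for cadmium against mercury at 3 h. It called 10 for the change of the arsenic effect from 12 to 24 h, 2 for that of the mercury effect from 1.5 to 12 h and 11 for cadmium at 12 against 1.5 h. Upper-quartile factors gave 15 for mercury at 12 h. Against the controls of 6 and 24 h, the counts at 12 h were 14, 16 and 16 for arsenic, cadmium and mercury, with median LFCs of 0.13, 0.094 and 0.058.

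Without metal, 6 against 1.5 h gave 1 call without a filter, 1 with a stricter filter, 1 with DESeq2 and 12 with 6 libraries, and 24 against 1.5 h gave 17 with DESeq2 and 7 with pseudogene counts added. With these added, the median LFC was 0.25 at 12 h without metal and 0.10 for cadmium at 1.5 h. The 12 h median against the other 4 times was 0.24. The median share of reads was 12.5% without mitochondrial genes in the total and 12.5% with pseudogenes.

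Leaving out 1 library gave 0 to 21 calls for arsenic at 1.5 h, 0 to 9 for cadmium at 3 h, 0 to 22 for mercury at 6 h, 0 to 1, 0 to 2 and 2 to 10 for arsenic, cadmium and mercury at 12 h, and 3 to 14, 1 to 2 and 2 to 16 at 24 h. Between arsenic and cadmium it gave 0 to 3 at 1.5 h and 3 to 12 at 24 h, between arsenic and mercury 0 to 24, 0 to 2, 0 to 27, 0 to 5 and 1 to 6 from 1.5 to 24 h, and between cadmium and mercury 0 to 4, 0 to 21 and 3 to 12 at 3, 6 and 24 h. Without metal the range was 24 to 48 at 12 h and 0 to 19 at 24 h. For 12 h against 1.5 h of the same metal it was 7 to 21 with arsenic, 2 to 4 with cadmium and 7 to 12 with mercury, and for the change of the effect between these times 0 to 18, 0 to 5 and 0 to 1. For the arsenic effect from 12 to 24 h it was 0 to 7. Median LFCs ran from 0.093 to 0.19 for arsenic at 3 h, -0.049 to 0.0029 for cadmium at 6 h and -0.10 to -0.041 at 12 h, and in non-treated cells 0.020 to 0.050, 0.089 to 0.14 and 0.25 to 0.34 at 3, 6 and 12 h.

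Same-numbered libraries did not deviate together (45 pairs of a metal with its control, r from -0.30 to 0.10, 0 above 0.1), and no pairing was assumed. With the replicate number as a block, the counts were 48 at 12 h and 9 at 24 h without metal, 6 and 8 for mercury at 6 and 12 h, 14 for arsenic and 12 for mercury at 24 h, and 1 for the arsenic effect from 12 to 24 h.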

Other observations

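The ribosomal proteins of mitochondria, which are made in the cytosol for a separate ribosome, were lower with mercury more often than raised. Of 74 tested, 21 were lower and 1 higher at 12 h (median LFC -0.19), and 22 lower and 4 higher at 24 h (median -0.15), where 7.16 and 13.9% of all genes were lower. At 24 h MRPS26 fell (LFC -0.92 ± 0.16, edgeR adjusted p = 2.95e-06) and MRPL18, whose transcript also gives a heat stress form of the protein, rose (LFC 1.05 ± 0.14, adjusted p = 4.19e-09). With cadmium 7 were lower and 1 higher at 12 h, where 8.18% of all genes were called, and 1 was lower at 24 h (0.632% of all genes). In non-treated cells 7 rose and 0 fell between 1.5 and 12 h (median LFC 0.15), where 2.34% of all genes rose and 1.75% fell.

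Of 18 genes of ribosome rescue and quality control, 3 rose and 2 fell with mercury at 24 h, and 3 rose and 1 fell with arsenic. Of all genes, 13.9% were called in each direction with mercury, and 6.54% rose and 7.75% fell with arsenic. PELO, which frees stalled ribosomes, rose most with mercury (LFC 1.42 ± 0.20, adjusted p = 8.12e-08), followed by ZNF622, a 60S assembly factor (LFC 1.02 ± 0.17, adjusted p = 2.54e-06).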
